A study of Mus musculus with 6 samples.

Results

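miR-92a-3p and miR-19b-3p are mature miRNAs that each arise from 2 genes, in the miR-17-92 cluster on chromosome 14 and in the miR-106a-363 cluster on chromosome X, and miR-92b is a paralog of miR-92a with a gene of its own on chromosome 3. The 4 mature miRNAs described here, listed as mmu-miR-92a-3p, mmu-miR-19b-3p, mmu-miR-92b-3p and mmu-miR-92b-5p, were taken by name from a count table of 1907 mature miRNAs. All 4 had counts in every library and passed the filter on low counts, which left 571 miRNAs to test.

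The libraries came from mouse embryonic stem cells (ESCs), pluripotent cells of the early embryo kept in culture, and the question was how their miRNA levels differ between a serum medium and 2 serum-free media that hold ESCs in the ground state of pluripotency. There were 3 media with 2 small RNA libraries each, from the lines RB18 and RB20, and each library was a pool of 3 cultures. Both lines were derived from C57BL/6 mice in R2i with leukaemia inhibitory factor (LIF), and the 2i and serum cultures had at least 10 passages in their medium. Serum ESCs were kept in 15% fetal bovine serum without inhibitors. In 2i the serum-free N2B27 medium held the MEK inhibitor PD0325901 at 1 µM and the GSK3 inhibitor CHIR99021 at 3 µM. In R2i it held PD0325901 at 1 µM and SB431542, an inhibitor of the TGF-β type I receptor, at 10 µM. LIF was present at 1000 U/ml in all 3 media, and the cells grew on gelatin. Since a medium had 2 libraries from different lines, the spread within a medium holds the difference between lines as well as that between pools.

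The total counts on miRNAs were 1744187 (RB18) and 2243369 (RB20) in serum, 2057602 and 3365676 in 2i, then 1041858 and 3593356 in R2i. In each medium the library of RB18 was the smaller, so line and depth cannot be told apart. The label ESC was met by the miRNAs that mark these cells: 10 of 10 ESC markers were above 3 counts in each library, and miR-295-3p was the most abundant of them. They summed to 24.06% of the counts in serum of RB20, which stood apart, and to between 32.3% and 36.0% in the other 5 libraries. The 5 fibroblast markers, led by miR-143-3p, summed to 0.150% and 0.184% in serum (RB18 and RB20), below all 4 ground-state libraries (0.236% to 0.355%). The 6 blood markers, led by miR-142a-5p and with miR-223-3p at 0 in every library, summed to 0.269% and 0.259% in serum, 0.482% and 0.178% in 2i, then 0.0861% and 0.0343% in R2i (RB18 and RB20). The part of these cells in the results was not tested.

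A miRNA is cut from a hairpin transcript by Drosha and Dicer, and of the duplex that results the strand kept by Argonaute guides repression of mRNAs that pair with its seed, while the strand from the other arm is mostly lost. The polycistronic miR-17-92 transcript is activated by MYC and is known for its role in proliferation and survival, in which the miR-92 seed family represses the proapoptotic gene Bcl2l11. The miR-106a-363 cluster is a paralog of miR-17-92 on the X chromosome, and miR-92b is known from neural progenitors, where it represses Eomes.

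The mature sequences below show what the members share and where they part, which decides how far their reads can be assigned. They are from RefSeq (GRCm38.p6), in which 1623 of the 1907 names in the table were matched, and run 5′ to 3′ with the seed (bases 2 to 8) in capitals.
miR-92a-3p: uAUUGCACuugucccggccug
miR-92b-3p: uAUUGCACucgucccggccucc
miR-25-3p: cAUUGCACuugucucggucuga
miR-363-3p: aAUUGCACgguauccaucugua
miR-367-3p: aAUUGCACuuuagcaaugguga
miR-32-5p: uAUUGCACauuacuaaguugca
miR-19b-3p: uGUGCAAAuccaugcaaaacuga
miR-19a-3p: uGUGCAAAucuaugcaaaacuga
miR-92b-5p: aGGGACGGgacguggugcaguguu

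The matched miRNAs held 6 with the seed AUUGCAC, among them miR-92a-3p and miR-92b-3p, and 2 with the seed GUGCAAA, miR-19b-3p and miR-19a-3p. The seed of miR-92b-5p, GGGACGG, was found in no other. Aligned without gaps and with positions counted from 1 at the 5′ end, miR-92a-3p and miR-92b-3p were identical at 19 of 21 positions, with the differences U10C and G21C (the base of miR-92a-3p is written before the position). From miR-92a-3p to miR-25-3p there were 3 differences, U1C, C14U and C18U, and from miR-19b-3p to miR-19a-3p there was 1, C11U. A read of miR-19b-3p and a read of miR-19a-3p can thus differ at a single base, and how the submitters' counting treated such reads is not given in the sources used here.

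The 3p arms of miR-92a and miR-19b were the same from both of their genes, whereas the 5p arms differed and so carry the gene of origin. The hairpins of both gene pairs show this, with the mature 3p arm in capitals.
Mir92-1: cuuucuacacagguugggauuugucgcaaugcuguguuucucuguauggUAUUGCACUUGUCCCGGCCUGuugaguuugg
Mir92-2: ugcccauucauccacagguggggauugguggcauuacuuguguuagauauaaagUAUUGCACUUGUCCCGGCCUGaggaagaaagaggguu
Mir19b-1: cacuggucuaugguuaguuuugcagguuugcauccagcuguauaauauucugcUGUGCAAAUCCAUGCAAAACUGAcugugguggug
Mir19b-2: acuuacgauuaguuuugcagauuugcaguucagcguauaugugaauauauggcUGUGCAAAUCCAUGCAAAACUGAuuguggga

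Mir92-1 (chr14:115044427-115044506) and Mir19b-1 (chr14:115044305-115044391) lie on the plus strand in exon 2 of the noncoding host gene Mir17hg (chr14:115042879-115046727). Mir92-2 (chrX:52741838-52741928) and Mir19b-2 (chrX:52741983-52742066) lie on the minus strand, 635 and 497 bases past the annotated end of the noncoding gene Kis2, and in no exon of it. Mir92b (chr3:89227116-89227198) lies on the minus strand 28 bases before the start of Mtx1, which codes for a mitochondrial outer membrane protein. Gene models were those of GENCODE M21. The 5p arms, read from the same hairpins, are shown because the gene of origin rests on them.
miR-92a-1-5p: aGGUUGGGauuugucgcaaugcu
miR-92a-2-5p: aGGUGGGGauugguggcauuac
miR-19b-1-5p: aGUUUUGCagguuugcauccagc
miR-19b-2-5p: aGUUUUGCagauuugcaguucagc

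The 5p arms of the miR-92a genes differed at 5 of 22 positions, from U5G in the seed to G21A, and those of the miR-19b genes at 7 of 23, all outside the seed.

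Levels are given as CPM, counts scaled to a common library total, after correction by the trimmed mean of M values (TMM), which sets the bulk of the miRNAs equal between libraries. miR-92a-3p, the guide strand of its hairpins, was among the most abundant miRNAs of these cells. It stood at 85647 CPM in RB18 and 162397 CPM in RB20 in serum, at 43661 and 44085 CPM in 2i, and at 63085 and 58684 CPM in R2i. Both serum libraries were above all 4 ground-state libraries, and both R2i libraries were above both 2i libraries. As a share of all counts it was 8.97% (95% Wilson interval 8.93 to 9.01) and 14.6% (14.56 to 14.65) in serum, 4.37% (4.34 to 4.39) and 4.29% (4.27 to 4.31) in 2i, then 7.06% (7.01 to 7.11) and 5.71% (5.69 to 5.73) in R2i. These and all other intervals of shares cover counting error only. It ranked 2 of all miRNAs in both serum libraries, 3 in both R2i libraries, and 4 (RB18) and 5 (RB20) in 2i.

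The mean of miR-92a-3p was 124022 CPM ± 54270.5 (SD, n = 2) in serum, 43873 ± 300.03 in 2i and 60884 ± 3113 in R2i. Its spread was thus widest in serum, where RB20 was 1.90-fold above RB18. That difference between lines was larger than in 80.2% of the 550 miRNAs compared in serum, whose median absolute difference was 0.44 on the log2 scale. In 2i the lines differed by 1.01-fold and in R2i by 1.075-fold.

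miR-19b-3p, which shares both clusters with miR-92a, was far less abundant. It stood at 3369 CPM in RB18 and 4803 CPM in RB20 in serum, at 1319 and 2793 CPM in 2i, and at 2933 and 3240.1 CPM in R2i. The media did not overlap, with serum highest and 2i lowest, but 2i was held apart from R2i by a gap smaller than that between its own libraries. Likewise, serum of RB18 (3369 CPM) and R2i of RB20 (3240.1 CPM) lay closer together than the serum libraries did. In 2i RB20 was 2.12-fold above RB18, more than in 92.5% of 562 miRNAs, and the means were 4086 CPM ± 1014 (SD, n = 2) in serum, 2056 ± 1042 in 2i and 3086 ± 217 in R2i.

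miR-92b-3p, the seed relative of miR-92a-3p on chromosome 3, varied least among the 3p arms. It stood at 2944 and 3002 CPM in serum (RB18 and RB20), 1826 and 2314 CPM in 2i, then 2259 and 2738 CPM in R2i. Serum was again above all 4 ground-state libraries, while 2i and R2i overlapped. Serum of RB18 (2944 CPM) and R2i of RB20 (2738 CPM) lay closer together than the R2i libraries did. How many of all 571 tested miRNAs keep serum apart from the ground state in this way is not given here. The separation of these 3p arms can thus not be read as particular to them. The means were 2973 CPM ± 41.0 (SD, n = 2) in serum, 2070.03 ± 345 in 2i and 2498 ± 339 in R2i.

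miR-92b-5p, the passenger strand of the same hairpin, had few counts. They were 25 and 25 in serum, 25 and 39 in 2i, then 11 and 57 in R2i, that is, 13.7 and 12.4 CPM, 12.1 and 11.9 CPM, and 9.44 and 16.3 CPM. The R2i libraries enclosed the other 4, so the media could not be ordered. At 11 counts a share of the R2i library of RB18 is known only to between 0.000590% and 0.00189% (95% Wilson interval), from counting error alone. The spread between libraries adds to this, so small differences between media could have been missed.

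**Figure D1:**
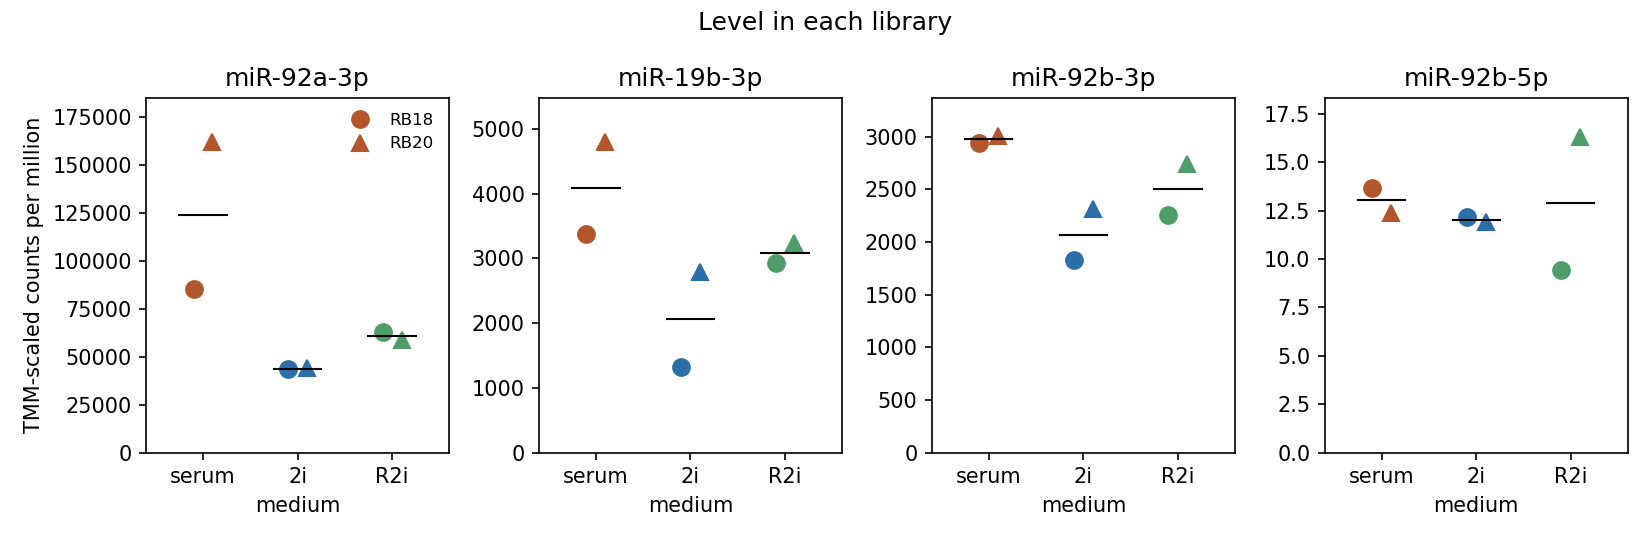
TMM-scaled CPM of each miRNA (vertical axis, counts scaled to a common library total, from 0) in serum, 2i and R2i; circles are RB18, triangles RB20 and the horizontal line is the mean of both. For miR-92a-3p, miR-19b-3p and miR-92b-3p both serum points lie above all 4 points of 2i and R2i, and for miR-92b-5p the points of R2i enclose those of serum and 2i. How common such a separation is among all tested miRNAs is not given here.

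The comparison of 2i with serum asks what differs between the medium with MEK and GSK3 inhibitors and the serum medium. miR-92a-3p was lower in 2i, and no call was made for miR-19b-3p, miR-92b-3p or miR-92b-5p. By edgeR's quasi-likelihood test, with Benjamini-Hochberg adjustment over all 571 miRNAs and a call at an adjusted p under 0.01 with more than a 2-fold difference, this was 1 of the 4, and 17.3% of all tested miRNAs were called lower in 2i. miR-92a-3p fell by 1.499 on the log2 scale (95% interval −2.23 to −0.77, adjusted p = 0.00531, edgeR), which is 2.83-fold. RNA was taken from whole cultures, in which fewer cells of a kind and less of a miRNA in each cell cannot be told apart. Within a line, the log2 difference between 2i and serum was −0.97 in RB18 and −1.88 in RB20, so its size followed the serum library. Without the serum library of RB20 it was −0.97 (adjusted p = 0.00697, edgeR), under 2-fold and no longer called. The call was also lost without the 2i library of RB18 (−1.46, adjusted p = 0.0446, edgeR), that of RB20 (−1.51, adjusted p = 0.0546) or the R2i library of RB18 (−1.46, adjusted p = 0.0116).

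For miR-19b-3p the log2 fold change in 2i was −0.99 (95% interval −1.85 to −0.13, adjusted p = 0.0568, edgeR). Both lines had the lower level in 2i, by −1.35 in RB18 and −0.78 in RB20, and its size depended on the 2i libraries: −0.52 without that of RB18 and −1.63 without that of RB20. For miR-92b-3p it was −0.52 (−1.07 to 0.03, adjusted p = 0.101, edgeR), again with the lower level in both lines. The interval of miR-92b-5p reached from −0.96 to 0.73 around −0.12 (adjusted p = 0.811, edgeR), and includes differences of over 1.5-fold in either direction.

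The comparison of R2i with serum asks the same of the medium with MEK and TGF-β receptor inhibitors. It shares its serum libraries with the comparison above, so neither is independent of the other. Of the 4, 0 were called by edgeR, while 15.6% of all tested miRNAs were called lower in R2i. Taken without adjustment, 1 had a p under 0.05, miR-92a-3p, against 283 of the 571. DESeq2 called 0 of the 4 and 187 of the 571, and limma 0 and 173. The log2 fold change of miR-92a-3p was −1.03 (95% interval −1.75 to −0.30, adjusted p = 0.0309, edgeR), with −0.44 in RB18 and −1.47 in RB20. It met the rule without the serum library of RB18 (−1.32, adjusted p = 0.00233, edgeR) and with no filter on low counts (−1.001, adjusted p = 0.0039). Without the serum library of RB20 it was −0.49 (adjusted p = 0.0686, edgeR).

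miR-19b-3p had a log2 fold change of −0.40 in R2i (95% interval −1.26 to 0.45, adjusted p = 0.422, edgeR) and miR-92b-3p one of −0.25 (−0.80 to 0.30, adjusted p = 0.434). For both, the level was lower in R2i than in serum in each line, by −0.20 and −0.57 for miR-19b-3p and by −0.38 and −0.13 for miR-92b-3p (RB18 and RB20). miR-92b-5p gave 0.05 (−0.79 to 0.90, adjusted p = 0.913, edgeR), and the lines lay on opposite sides of 0.

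Set against each other, 2i and R2i share the MEK inhibitor and differ in the second inhibitor, and this contrast is also the test of whether the fall in 2i differs from the difference in R2i. By edgeR 0 of the 4 were called, and 0.350% of all tested miRNAs were called in either direction. Unadjusted p-values were under 0.05 for 0 of the 4, against 104 of the 571, and DESeq2 called 0 of the 4 and 12 of the 571, while limma called 0 and 2. The log2 fold change (2i over R2i) was −0.47 for miR-92a-3p (95% interval −1.19 to 0.25, adjusted p = 0.464, edgeR) and −0.59 for miR-19b-3p (−1.44 to 0.27, adjusted p = 0.443), the latter −0.16 without the 2i library of RB18 and −1.23 without that of RB20. It was −0.27 for miR-92b-3p (−0.82 to 0.28, adjusted p = 0.598, edgeR) and −0.17 for miR-92b-5p (−1.004 to 0.66, adjusted p = 0.852). These intervals include a 2-fold difference for miR-92a-3p, miR-19b-3p and miR-92b-5p but not for miR-92b-3p.

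With 2i and R2i taken as a ground state by the mean of both, 1 of the 4 was called lower than in serum, miR-92a-3p, and 19.96% of all tested miRNAs were called lower. The log2 fold change of miR-92a-3p was −1.26 (95% interval −1.86 to −0.66, adjusted p = 0.00419, edgeR). The call was lost with any library left out but the serum library of RB18. Without the serum library of RB20 it was −0.73 (adjusted p = 0.0121, edgeR), without the 2i library of RB18 −1.22 (0.0207) and of RB20 −1.27 (0.024), and without the R2i library of RB18 −1.27 (0.0141) and of RB20 −1.24 (0.0142). miR-19b-3p gave −0.70 (−1.42 to 0.03, adjusted p = 0.0965, edgeR) and miR-92b-3p gave −0.39 (−0.85 to 0.08, adjusted p = 0.143), neither of them called. No direction can be given for miR-92b-5p, whose value of −0.03 (−0.77 to 0.71, adjusted p = 0.941, edgeR) turned to 0.02 under the scaling that DESeq2 uses and to 0.01 with library totals alone.

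**Figure D2:**
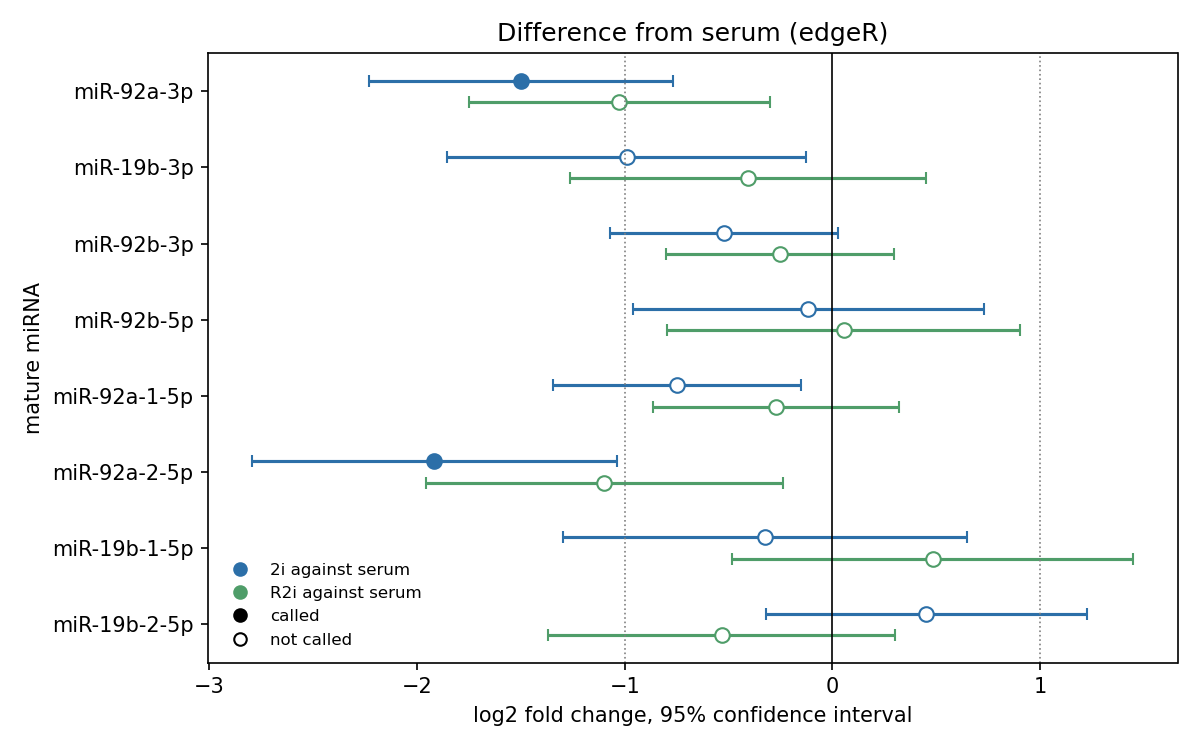
Log2 fold change against serum (horizontal axis) with its 95% confidence interval for 2i (blue) and R2i (green), from edgeR; filled points were called and the dotted lines mark a 2-fold difference. The called points are −1.499 for miR-92a-3p and −1.92 for miR-92a-2-5p, in 2i.

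The 5p arms tell the genes of miR-92a apart. miR-92a-1-5p, from chromosome 14, stood at 2079 and 3080 CPM in serum (RB18 and RB20), 1587 and 1487 CPM in 2i, then 2176 and 2097 CPM in R2i. Serum and R2i overlapped and 2i was below both. miR-92a-2-5p, from chromosome X, stood at 136 and 219 CPM in serum, 47.6 and 46.4 CPM in 2i, then 111 and 57.8 CPM in R2i. Here both serum libraries were above all others, and R2i spread from near serum (RB18) to near 2i (RB20).

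In 2i the X-linked arm miR-92a-2-5p fell by 1.92 on the log2 scale (95% interval −2.79 to −1.04, adjusted p = 0.00385, edgeR), 3.77-fold. The call was lost with the cell line as a replicate block (−1.93, adjusted p = 0.0124), without the serum library of RB20 (−1.54, adjusted p = 0.0299, edgeR) and without the 2i library of RB18 (−1.90, adjusted p = 0.0235) or RB20 (−1.90, adjusted p = 0.0264). In R2i its log2 fold change was −1.10 (−1.96 to −0.24, adjusted p = 0.0457, edgeR), not called. It was called with no filter on low counts (−1.08, adjusted p = 0.00529, edgeR), and was −1.63 without the R2i library of RB18 and −0.68 without that of RB20, called in neither. The arm from chromosome 14, miR-92a-1-5p, had −0.75 in 2i (−1.34 to −0.15, adjusted p = 0.0419, edgeR) and −0.27 in R2i (−0.87 to 0.32, adjusted p = 0.434). The value of miR-92a-1-5p in 2i was −0.44 without the serum library of RB20 and −0.93 without that of RB18. The difference between both genes in their response was not tested.

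By counts, the X gene gave a small part of the 5p reads of miR-92a. It was 6.15% (95% Wilson interval 5.45 to 6.94) and 6.63% (6.06 to 7.25) in serum, 2.91% (2.40 to 3.54) and 3.03% (2.59 to 3.54) in 2i, then 4.84% (4.09 to 5.72) and 2.68% (2.34 to 3.07) in R2i. Serum lay above every ground-state library, and the interval of R2i in RB18 reached that of serum in RB18. For miR-19b the X gene gave a larger part, from far fewer reads (56 to 105 a library): 50.9% (38.3 to 63.4) and 42.3% (31.5 to 53.8) in serum, 66.3% (55.4 to 75.7) and 52.4% (42.9 to 61.7) in 2i, then 25% (15.5 to 37.7) and 37.0% (27.8 to 47.2) in R2i. Both 2i libraries were above both serum libraries and these above both R2i libraries, although intervals of neighbours overlapped. How the 3p reads of either miRNA divide between the genes cannot be read from these shares, since arms are kept to different extents.

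**Figure D3:**
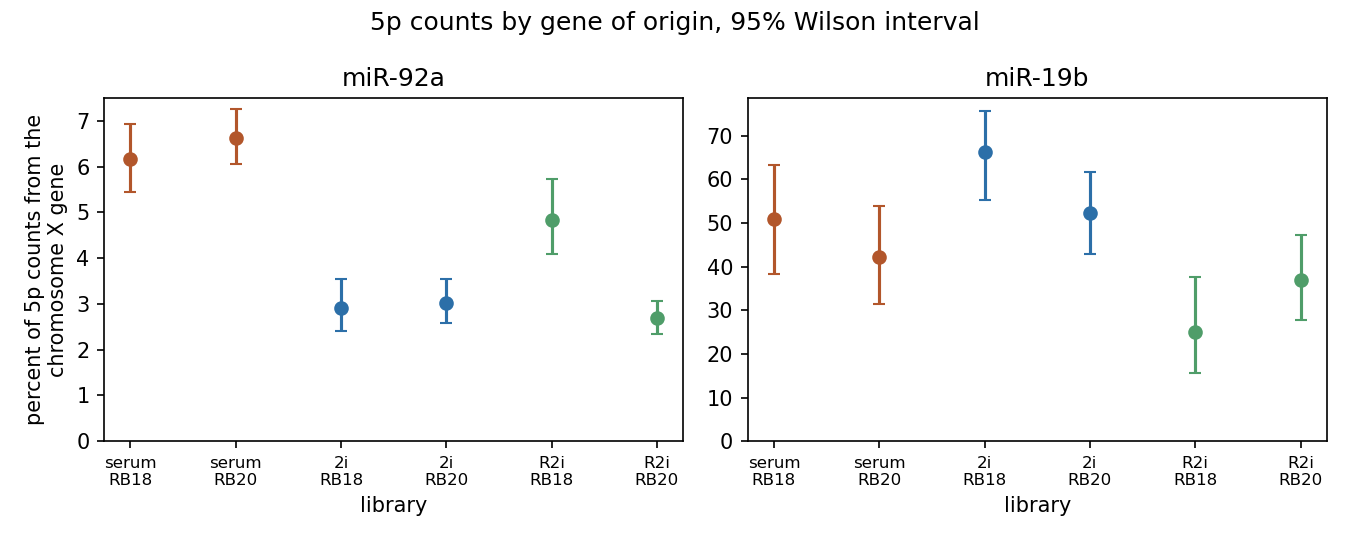
Percent of the 5p counts of miR-92a (left) and miR-19b (right) that came from the gene on chromosome X, in each library, with the 95% Wilson interval, which covers counting error only. For miR-92a serum (6.15% and 6.63%) lies above the other 4 libraries, and for miR-19b 2i is highest and R2i lowest.

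The arms of miR-19b themselves had between 14 and 58 counts. miR-19b-1-5p (chromosome 14) ran from 13.1 to 20.3 CPM in 5 libraries and was 36.0 CPM in R2i of RB18. Its log2 fold change was −0.32 in 2i (95% interval −1.30 to 0.65, adjusted p = 0.551, edgeR) and 0.48 in R2i (−0.49 to 1.45, adjusted p = 0.398), the latter −0.12 without the R2i library of RB18. miR-19b-2-5p (chromosome X) gave 0.45 in 2i (−0.32 to 1.23, adjusted p = 0.289, edgeR) and −0.53 in R2i (−1.37 to 0.30, adjusted p = 0.279). Neither arm was called. The interval of miR-19b-3p in 2i (−1.85 to −0.13 around −0.99) overlapped those of miR-19b-1-5p and miR-19b-2-5p, and the difference between arms was not tested in this fit.

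For miR-92a the 3p arm had 38.7 (95% Wilson interval 37.5 to 39.9) and 49.2 (48.1 to 50.4) counts for each 5p count in serum (RB18 and RB20), 26.7 (25.8 to 27.7) and 28.7 (28.0 to 29.6) in 2i, then 27.6 (26.5 to 28.7) and 27.2 (26.6 to 27.9) in R2i. The ground-state libraries lay within a narrow band and serum stood apart from them. The mean log2 ratio in the ground state minus that in serum was −0.66, with p = 0.133 by an exact two-sided permutation test, the smallest p that 2 libraries against 4 allow. Of 4 ratios tested in this way, it was the only one without overlap between serum and the ground state.

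For miR-19b the ratio was 108 (83.2 to 140) and 136 (108 to 172) in serum, 33.9 (27.2 to 42.4) and 87.1 (71.9 to 106) in 2i, then 61.1 (46.9 to 79.4) and 123 (100.3 to 151) in R2i. In every medium it was higher in RB20, and serum and R2i overlapped (log2 difference −0.82, exact permutation p = 0.267). Within each line, however, serum was above both 2i and R2i, and the permutation test does not use this pairing by line. For miR-92b it was between 150.3 and 242 in all 6 libraries, with 11 to 57 counts on the 5p arm (log2 difference −0.30, exact permutation p = 0.267). In every library the 3p arm was thus by far the more abundant strand of all 3 miRNAs. The ratio of miR-92a-3p to miR-19b-3p was 25.4 and 33.8 in serum, 33.1 and 15.8 in 2i, then 21.5 and 18.1 in R2i, and the 2i libraries alone spanned nearly the whole range (log2 difference −0.47, exact permutation p = 0.267).

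**Figure D4:**
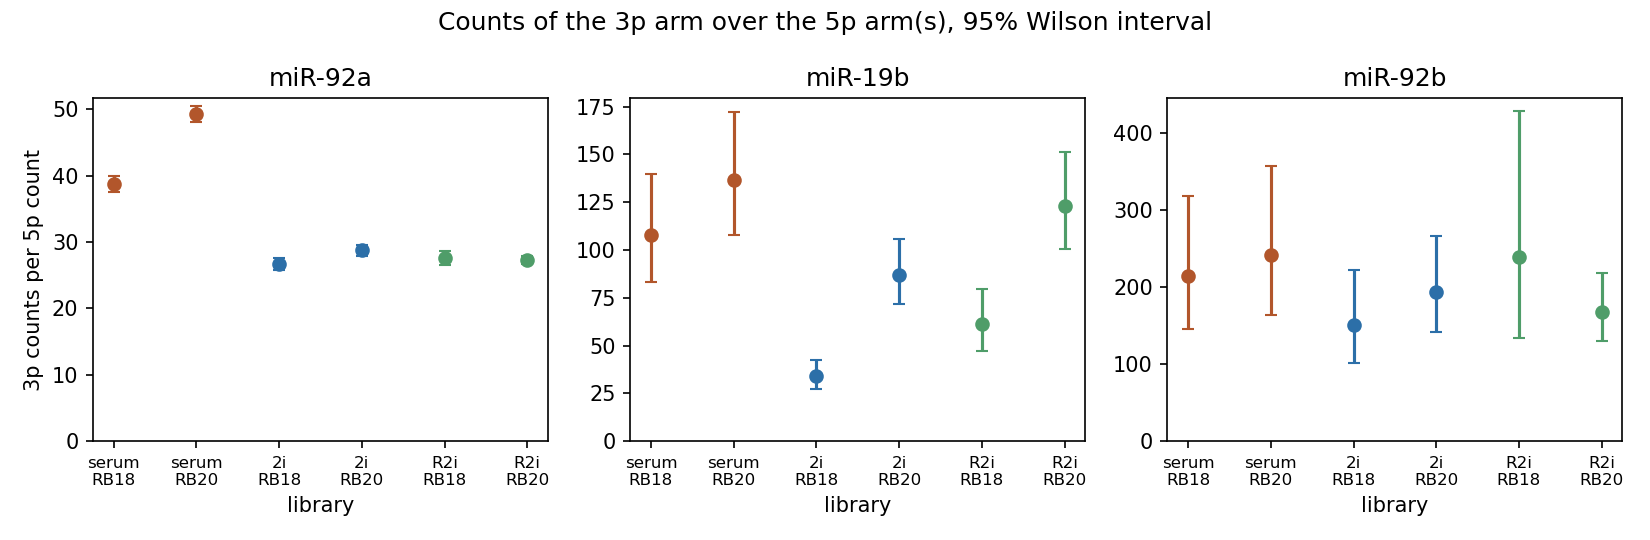
Counts of the 3p arm for each count of the 5p arm (for miR-92a and miR-19b, of the 5p arms of both genes) in each library, with the 95% Wilson interval, which covers counting error only; each vertical axis starts at 0. For miR-92a the 4 ground-state libraries lie between 26.7 and 28.7, below serum.

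The following ratios were chosen after their values were seen and have no test. miR-25-3p, the seed relative of miR-92a-3p in the miR-106b-25 cluster, was not called, and miR-92a-3p had 11.3 and 12.3 counts for each of miR-25-3p in serum and between 4.99 and 6.62 in the 4 ground-state libraries. Against miR-92a-1-5p alone, miR-92a-3p had 41.2 and 52.7 counts in serum and 27.5 to 29.6 in the ground state. Against miR-92b-3p it had 29.1 and 54.1 in serum and 19.1 to 27.9 in the ground state, where the gap between serum of RB18 and R2i of RB18 was small. miR-19b-3p kept a ratio to miR-19a-3p, its neighbour in the miR-17-92 cluster, of between 4.42 and 5.13 in all 6 libraries. Their sequences differ at 1 base (C11U), and how reads of either were counted is not given in the sources used here. That limit holds for the later comparisons of miR-19b-3p with miR-19a-3p as well. Ratios of 3p to 5p in other miRNAs of these families differed in direction. That of miR-363 was lower in serum, the other way to miR-92a, with 24.4 and 16.8 in serum and 25.3 to 37.5 in the ground state, but the intervals of serum (21.1 to 28.1) and R2i (20.8 to 30.7) in RB18 overlapped. Those of miR-25 (31.97 and 53.9, against 40.9 to 47.0) and miR-19a (16.2 and 23.6, against 5.63 to 17.1) overlapped.

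Taken as a seed family, the 6 miRNAs with AUUGCAC held 10.4% and 16.3% of all counts in serum (RB18 and RB20), 5.82% and 5.76% in 2i, then 8.71% and 7.13% in R2i. miR-92a-3p made up 86.4% (95% Wilson interval 86.3 to 86.6) and 89.4% (89.3 to 89.5) of the family in serum, 75.0% (74.7 to 75.2) and 74.5% (74.3 to 74.7) in 2i, then 81.1% (80.8 to 81.3) and 80.02% (79.86 to 80.17) in R2i. The other 5 together stood at 13463 and 19248 CPM in serum, 14572 and 15059 CPM in 2i, then 14728 and 14656 CPM in R2i. The family total therefore followed miR-92a-3p, while the sum of its relatives in every ground-state library lay between both serum libraries.

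Among the relatives, miR-25-3p stood at 7581 and 13176 CPM in serum and between 7950.2 and 9535 CPM in the ground state, inside the range of serum. Its log2 fold change was −0.31 in 2i (95% interval −0.98 to 0.37, adjusted p = 0.411, edgeR) and −0.17 in R2i (−0.84 to 0.51, adjusted p = 0.697), and without the serum library of RB20 these were 0.15 and 0.29. miR-32-5p, from an intron-borne gene on chromosome 4, stood at 299 and 196 CPM in serum, 480.1 and 472 CPM in 2i, then 355 and 317 CPM in R2i, an order of media opposite to that of miR-92a-3p. It was not called (2i 0.95, 0.31 to 1.58, adjusted p = 0.0214, edgeR). The size of this value depended on the serum libraries: 1.36 without that of RB18 and 0.67 without that of RB20. miR-363-3p, the last miRNA of the miR-106a-363 cluster, gave 0.47 in 2i (−0.05 to 1.002, adjusted p = 0.117, edgeR) and −0.17 in R2i (−0.70 to 0.35, adjusted p = 0.585).

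miR-367-3p, of the miR-302 cluster of ESCs, was the least abundant relative, at 21.9 and 32.2 CPM in serum, 105 and 62.3 CPM in 2i, then 279 and 102 CPM in R2i. In R2i it rose by 2.79 on the log2 scale (95% interval 1.56 to 4.03, adjusted p = 0.00356, edgeR), and it was not called in 2i (1.62, 0.41 to 2.82, adjusted p = 0.0326). In 2i it met the rule by DESeq2 (1.66, adjusted p = 0.00274), with only 2i and serum in the fit (1.62, adjusted p = 0.00964, edgeR) and with no filter on low counts (1.67, adjusted p = 0.00000864). The call in R2i was lost without either serum library (2.66, adjusted p = 0.0371 without RB18, and 3.10, adjusted p = 0.0312 without RB20, edgeR) or the R2i library of RB18 (1.90, adjusted p = 0.0132). Its counts were at most 0.358% of the family.

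**Figure D5:**
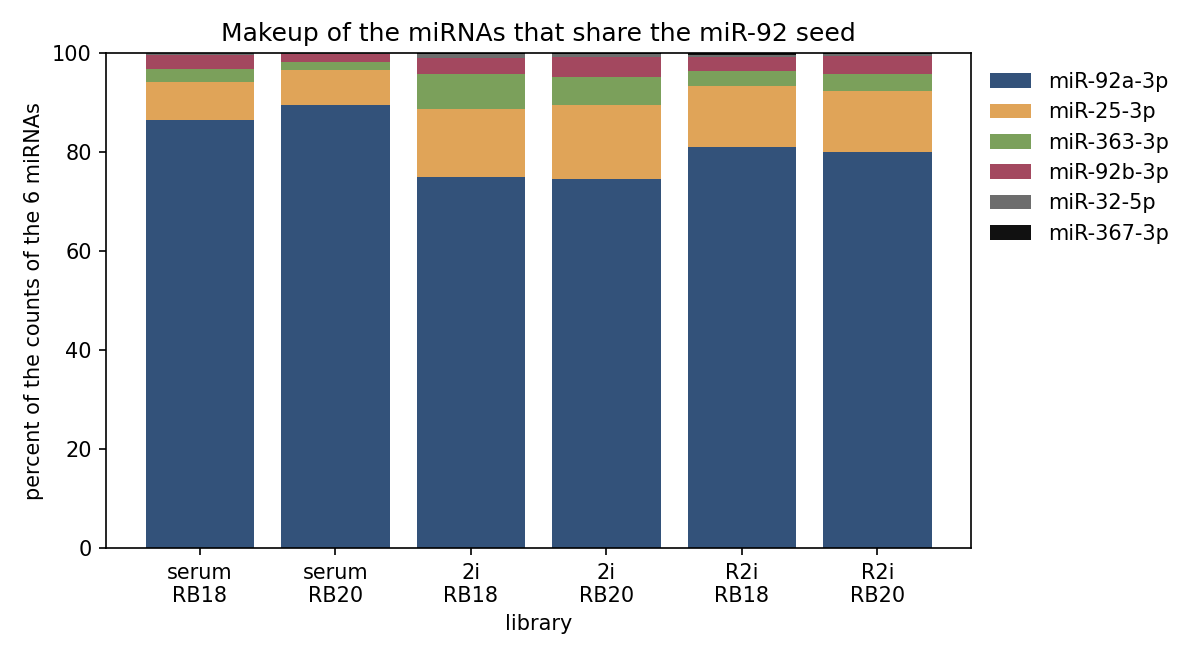
Share of each miRNA with the seed AUUGCAC in the summed counts of the 6, in percent, for each library. miR-92a-3p (dark blue) takes 86.4% and 89.4% in serum, 75.0% and 74.5% in 2i, then 81.1% and 80.02% in R2i.

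In the miR-19 family, miR-19b-3p held between 81.6% and 83.7% of the counts in every library. miR-19a-3p stood at 762 and 1005 CPM in serum, 257 and 566 CPM in 2i, then 636 and 725 CPM in R2i, the same order of libraries as miR-19b-3p. Its log2 fold change was −1.10 in 2i (95% interval −1.98 to −0.22, adjusted p = 0.0426, edgeR) and −0.38 in R2i (−1.25 to 0.50, adjusted p = 0.466), beside −0.99 and −0.40 for miR-19b-3p. miR-19a-3p was called in 2i with no filter on low counts (−1.04, adjusted p = 0.0045, edgeR). Its size in 2i depended on single libraries: −1.78 without the 2i library of RB20 and −0.62 without that of RB18. Without the serum library of RB20 it was −0.89.

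Across the 6 libraries, which fall into media and lines, log2 CPM of miR-92a-3p had a Pearson r of 0.779 with miR-19b-3p, 0.770 with miR-92b-3p and 0.0656 with miR-92b-5p. The r of miR-19b-3p with miR-92b-3p, which lies on another chromosome, was 0.920. These values are descriptions over 6 points. Among 234 other miRNAs with a mean of at least 100 CPM, the 5 most like miR-92a-3p were miR-101a-3p (r = 0.997), miR-292a-5p (0.989), miR-151-3p (0.965), miR-296-3p (0.957) and miR-669c-5p (0.956), against a median r of 0.0376. miR-292a-5p belongs to the miR-290 cluster, the main ESC cluster, and miR-669c-5p to the rodent cluster in an intron of Sfmbt2. For miR-19b-3p they were miR-19a-3p (0.995), miR-25-5p (0.947), miR-92b-3p (0.920), miR-9-5p (0.891) and miR-125b-5p (0.880), and for miR-92b-3p they were miR-10a-5p (0.947), miR-19a-3p (0.935), miR-292a-3p (0.934), miR-25-5p (0.928) and miR-19b-3p (0.920), with medians of 0.0849 and 0.0698.

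The mature miRNAs that only a single cluster can give are the setting for these values. Of 10 from miR-17-92, 0 were called by edgeR, DESeq2 or limma in either medium, with 2 (2i) and 0 (R2i) under an unadjusted p of 0.05. Of all 571, edgeR called 195 in 2i and 175 in R2i, DESeq2 219 and 187, and limma 194 and 173, with 329 and 283 under an unadjusted p of 0.05. Their median log2 fold changes were −0.19 in 2i and −0.03 in R2i. Of 10 from miR-106a-363, edgeR called 1 in 2i, miR-92a-2-5p, with a median of −0.43. In R2i edgeR, DESeq2 and limma called 0 of these 10, with 3 under an unadjusted p of 0.05 and a median of −0.62. Of 6 from miR-106b-25, 0 were called by any of the 3 tools and 0 were under an unadjusted p of 0.05 in either medium, with medians of 0.16 and 0.07. Over all 571 tested miRNAs the medians were −0.03 in 2i and −0.07 in R2i.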

How the data were processed

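Total RNA of 6 ESC pools was made into small RNA libraries and sequenced on an Illumina instrument. The submitters' processing notes name FastQC 0.11.5, cutadapt 1.3, Bowtie 1.1.2 and featureCounts 1.5, with the mouse build mm10. The authors deposited raw counts for each mature miRNA, and log2 values of counts divided by a size factor plus 1, which were used only with limma. The mismatches allowed and the treatment of reads that map to several places are not given in the sources used here, so reads of miRNAs with identical or nearly identical sequence may be shared among them.

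For the tests, the counts of all 6 libraries were scaled by TMM and entered in the quasi-likelihood fit of edgeR 4.0.16 (R 4.3.3) with 1 coefficient for each of 3 media. The filter asked for a minimum count of 10 after scaling in as many libraries as a medium has, of the same medium or not, and a total of 15. It left 571 of the 1233 miRNAs with a count. p-values were adjusted by Benjamini-Hochberg over all 571, and a call needed an adjusted p under 0.01 and more than a 2-fold difference. DESeq2 1.42.0, limma 3.58.1, other scalings, no filter, the cell line as a block, only the media compared, an adjusted p under 0.05 and each library left out were alternatives. The test was checked on simulated data. Shares have 95% Wilson intervals. Ratios of arms were compared between serum and the ground state by exact two-sided permutation tests in scipy 1.17.1 under Python 3.11.15.

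miRNAs named in the text were the 4 members, the 5p arms of the miR-92a and miR-19b genes, miRNAs with a member's seed, those of the miR-17-92, miR-106a-363 and miR-106b-25 clusters, and, for each of the 3 abundant members, the 5 other tested miRNAs with a mean of at least 100 CPM and the highest Pearson r of log2 CPM. ESC, fibroblast and blood markers were listed as a check of the cells. Members and lists were chosen with earlier results of these data known.

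The libraries are paired by cell line, since each medium has the same lines. The differences between lines (RB20 minus RB18, log2) correlated across 541 miRNAs, which are not independent, with r = 0.172 between serum and 2i, −0.145 between serum and R2i, and 0.240 between 2i and R2i.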

Additional observations from a re-analysis of the deposited data

Results flagged for a closer look

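Within the 4 ground-state libraries, miR-19b-3p in 2i of RB18 stood far from the rest: on the log2 scale its gap to the nearest library was 0.835 of the whole range, above Dixon's 95% critical value for 4 samples. On the linear scale the gap was 0.767 of the range, below that value. In the same library the 3p to 5p ratio of miR-19a was 5.63, against 16.1 to 17.1 in the other ground-state libraries, a gap of 0.946 of the range. On the linear scale miR-19b-1-5p in R2i of RB18 was past the limit as well (0.849 of the range; 0.768 on the log2 scale). Of 24 quantities examined 2 were past it on each scale, and chance puts about 1 in 20 past it.

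For some miRNAs the lines moved in opposite directions between media, and these differences between lines were not tested. For miR-25-3p the log2 difference from serum was 0.07 in RB18 and −0.58 in RB20 for 2i, −0.645 apart, and 0.33 and −0.56 for R2i, −0.888 apart. For miR-92b-5p it was −0.54 and 0.40 for R2i, 0.933 apart, and 2i against R2i gave 0.37 and −0.45, −0.818 apart, on 11 to 57 counts. For miR-92a-1-5p in R2i it was 0.07 and −0.55, −0.62 apart, and for miR-19b-1-5p in R2i 1.23 and −0.29, −1.53 apart. Over 541 miRNAs the lines moved in opposite directions in 16.8% for 2i against serum, 22.6% for R2i against serum and 28.5% for 2i against R2i.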

How the results depend on the processing

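Of the values of the 4 members, the arm ratios and the counts of calls under other settings, 279 kept their direction and side of the threshold, 9 lost and 3 gained a call, 11 turned their direction and 11 counts moved by over 1.5 times. miR-92a-3p in R2i was called with no filter on low counts (−1.001) and at an adjusted p under 0.05 (−1.03). With each library left out in turn, where a lone library was assumed to vary like the other media, its log2 fold change ran from −1.81 to −0.97 in 2i, −1.32 to −0.49 in R2i and −1.57 to −0.73 in the ground state. miR-19b-3p ran from −1.63 to −0.52 in 2i, −0.55 to −0.13 in R2i, −1.23 to −0.16 for 2i against R2i and −1.02 to −0.42 in the ground state, and miR-92b-3p from −0.70 to −0.34, −0.40 to −0.14, −0.45 to −0.12 and −0.48 to −0.28. miR-92b-5p turned direction in R2i by limma (−0.005) and in the ground state by DESeq2 (0.0069), its scaling in edgeR (0.0191), library totals (0.0107) and no filter (0.0089). With libraries left out it ran from −0.19 to 0.0318 in 2i, −0.46 to 0.30 in R2i, −0.40 to 0.35 for 2i against R2i and −0.29 to 0.12 in the ground state, on 11 to 57 counts. miR-25-3p ran from −0.57 to 0.15 (2i), −0.42 to 0.29 (R2i) and −0.50 to 0.22 (ground state), miR-92a-1-5p from −0.43 to 0.0393 (R2i), and miR-19b-1-5p from −0.12 to 1.01 (R2i) and −0.21 to 0.34 (ground state). miR-19b-2-5p in the ground state ran from −0.18 to 0.11, and was 0.0208 by DESeq2, 0.0134 with its scaling, 0.0168 with library totals and 0.005 by limma. With the cell line as a replicate block miR-92a-3p stayed called in 2i (−1.46, adjusted p = 0.00934, edgeR) and the ground state (−1.22, adjusted p = 0.0083), and no call of another member differed. The miRNAs called for 2i against R2i were 2, miR-211-3p and miR-211-5p, named after their values were seen; there were 0 with the replicate block (104 at an unadjusted p under 0.05 in edgeR without it), 0 with only these media in the fit, 12 by DESeq2, 25 with no filter and 0 to 2 with a library left out. For R2i against serum 175 were called, and 112 to 162 with a library left out, the lowest without R2i of RB18. In the 4 libraries of serum and R2i alone a block of crossed lines called 204 and the replicate block of true lines 0 (234 at an unadjusted p under 0.05, edgeR), and over all 6 libraries the true lines called 155. The fits of these 4 and the left-out libraries of the arm ratios were added after seeing the data. The ratios kept their sign with any library left out, from −0.84 to −0.49 for miR-92a, −1.10 to −0.48 for miR-19b, −0.43 to −0.20 for miR-92b and −0.68 to −0.26 for miR-92a-3p to miR-19b-3p. Library totals moved the median of all miRNAs in R2i by 0.11 (log2). Without miR-363-3p and miR-367-3p, miR-92a-3p was 88.8% and 90.8% of its family in serum (RB18 and RB20). It was 81.0% and 79.1% in 2i, then 83.9% and 83.0% in R2i. For the ground state, a fit of only the media compared is the fit of all 6 libraries. The cause of these shifts was not tested.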
